A study of Oryza sativa Japonica Group and Oryza sativa Indica Group with 20 samples.

Results

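Of 54170 rice loci, 124 moved in opposite directions in 2 cultivars between the embryo and callus that regenerated: 72 rose in the japonica cultivar TNG67 and fell in the indica cultivar IR64, and 52 did the reverse. They were chosen by their measured values in 4 RNA libraries, the embryo (T0) and the successfully regenerated callus (TS) of each cultivar. A locus had to have at least 1 FPKM in at least 2 of the 10 libraries, which 22913 loci did. Its (TS + 1)/(T0 + 1) ratio then had to be at least 4 in one cultivar and at most 0.25 in the other. FPKM is a fragment count scaled to gene length and to the mapped fragments of the library. Below, "rose" and "fell" between T0 and TS mean past this 4-fold rule, with no test, because the rule itself uses those libraries.

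The study took rice seeds of Tainung 67 (TNG67) and Indica Rice 64 (IR64), both named cultivars with no transgene or added allele in the labels, through tissue culture. The embryo (T0) was followed by callus induced in the presence of 2,4-D, a synthetic auxin, at 2.5 mg/L (T1) and by callus moved to fresh medium of that kind (T2). Callus then went to regeneration medium, which held the cytokinin BAP at 2 mg/L and little auxin (NAA, 0.02 mg/L), where it either regenerated (TS) or failed to (TF). Each cultivar and stage had 1 RNA library, 10 in all, and the labels do not say how many seeds or cultures stood behind a library, so no value has a replicate of its own. TS and TF are alternative outcomes on the same medium, not successive stages.

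Callus is tissue of dividing, largely unspecialised cells that plant material forms on auxin medium. Shoots are then raised by lowering the auxin and adding cytokinin, and cultivars differ widely in how readily they respond. Many transcripts abundant in the embryo, such as those of storage and desiccation proteins, are usually lost when callus forms, while transcripts of cell division and growth are gained. A bulk library cannot tell fewer cells of a type from less RNA per cell. The loci carry identifiers such as LOC_Os03g08520, in which the digits after "Os" give the chromosome (here 3). Neither the deposited table nor the RefSeq table used here pairs any of the 124 identifiers with a name, so no function is given below, and the labelled tissues could not be checked against marker genes.

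In the whole table, summed FPKM ran from 602209 to 1063007 in all libraries but the IR64 embryo, where it was 3792962. There 1 locus, not among the 124, was listed at 3000000, and the rest summed to 792962. Sequencing depth was unknown. Median-ratio scaling factors of the libraries lay between 0.965 and 1.05. The label of the TNG67 T1 RNA library describes DNA extraction and bisulfite treatment in place of RNA extraction, so the fits that use that library are also given without it, while the values at T1 itself rest on it.

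The opposite movers were 0.541% of the 22913 loci. By comparison 231 loci rose at least 4-fold in both cultivars and 606 fell at least 4-fold in both. In TNG67 alone 4.6% of the loci rose and 7.21% fell by the 4-fold rule, and in IR64 alone 6.31% rose and 7.28% fell. These shares are a description of the libraries that made the choice, and nothing is read from the members' counts against them.

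**Figure D1:**
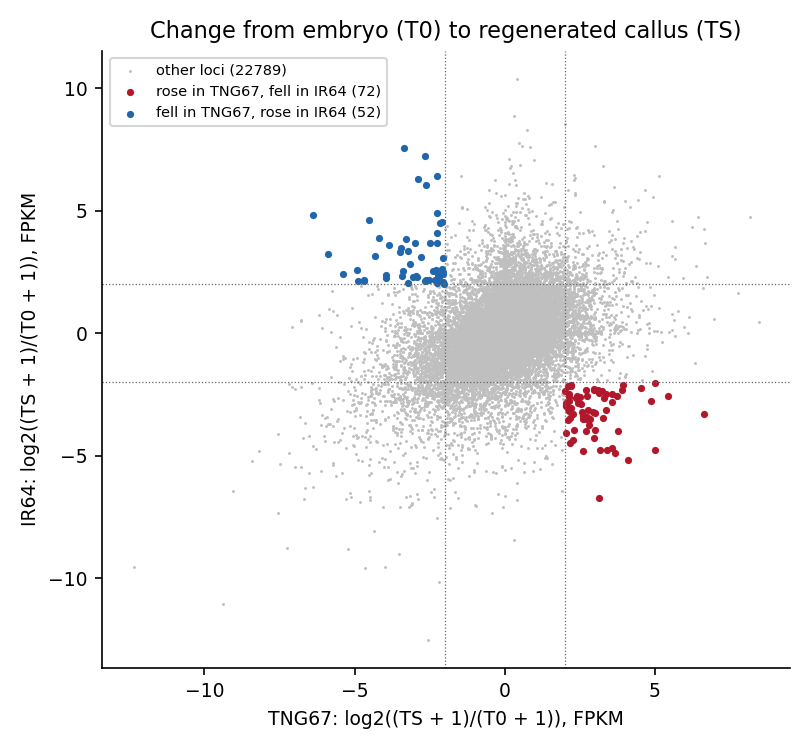
Each point is 1 locus, with the log2 ratio of (FPKM + 1) between TS and T0 in TNG67 on the horizontal axis and in IR64 on the vertical axis; dotted lines mark 4-fold. The 72 loci that rose in TNG67 and fell in IR64 lie at the lower right (red) and the 52 that did the reverse at the upper left (blue), past both limits by construction.

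The choice has a sharp edge at 4-fold. Just inside it, LOC_Os08g34240 was 4.06-fold higher in TNG67 TS than T0 and 5.14-fold lower in IR64, on the (FPKM + 1) scale. LOC_Os11g05380 was 32.5-fold higher and 4.09-fold lower. Just outside, LOC_Os01g03840 was 8.58-fold higher and 3.86-fold lower, and LOC_Os11g05614 was 3.86-fold higher and 5.80-fold lower. In the reverse direction, LOC_Os10g39710 was just inside, 4.05-fold lower in TNG67 and 4.07-fold higher in IR64, as was LOC_Os02g48080, 4.11-fold lower and 4.30-fold higher. LOC_Os11g02130 was just outside at 8.76-fold lower and 3.96-fold higher, as was LOC_Os10g38110 at 3.94-fold lower and 19.0-fold higher.

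The loci that rose in TNG67 and fell in IR64 crossed over between the embryo and the callus. Their median level was 2.12 FPKM in the TNG67 embryo and 26.5 in TNG67 TS, against 24.1 in the IR64 embryo and 1.51 in IR64 TS. The embryos were thus already apart: 70 of the 72 were higher in the IR64 embryo, 51 of them (70.8%) at least 4-fold. Across all loci 4.56% were at least 4-fold higher in the IR64 embryo, but the embryo values entered the choice and nothing is read from this. At TS all 72 were higher in TNG67, 60 of them (83.3%) at least 4-fold, where 6.97% of all loci were, and these values too entered the choice.

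The 52 loci of the reverse direction mirrored this. Their median was 25.9 FPKM in the TNG67 embryo and 2.48 in TNG67 TS, against 4.13 in the IR64 embryo and 38.3 in IR64 TS. Of the 52, 51 were higher in the TNG67 embryo, 40 of them (76.9%) at least 4-fold, where 5.84% of all loci were. At TS 51 were higher in IR64, 46 of them (88.5%) at least 4-fold, where 7.05% of all loci were. The exception at TS was LOC_Os11g47580, singled out after its values were seen, at 923 FPKM in the TNG67 library and 563 in that of IR64. Its embryo values of 3805 and 104 FPKM show a fall in TNG67 that ended above the level to which IR64 had risen.

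Levels varied over 3 orders of magnitude within each direction. The highest of the 4 choosing values of a locus ran from 4.97 to 5635 FPKM (median 34.0) in the first direction and from 6.72 to 7922 (median 47.3) in the second. At least 10 FPKM was reached by 66 of 72 and 51 of 52 loci, and at least 100 FPKM by 13 and 17. In each direction 4 loci were listed at 0 in 1 of the choosing libraries, and a listed 0 can be a failed estimate. Of the first direction 6 loci, and of the second 1, were sums of more than 1 deposited row.

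The loci named next had the largest smaller change of the 2 cultivars, among those with at least 10 FPKM in a choosing library. LOC_Os03g08520 on chromosome 3 ranked first among the loci that rose in TNG67. It was at 0.161, 87.3, 67.9, 36.4 and 29.9 FPKM in TNG67 T0, T1, T2, TS and TF, and at 55.7, 0.360, 1.40, 1.09 and 74.4 FPKM in IR64 in the same order. It was low in the TNG67 embryo and high in every TNG67 callus, while in IR64 it was high in the embryo and the failed callus and low in the other calli.

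LOC_Os04g23550 on chromosome 4 had the same course. It stood at 1.91, 74.2, 87.7, 49.2 and 39.1 FPKM across the TNG67 stages, against 120, 0.621, 1.43, 2.31 and 145 in IR64. The IR64 failed callus was the highest of its 10 libraries. LOC_Os01g10490 on chromosome 1 fell furthest in IR64, from 274 FPKM in the embryo to 7.92, 6.83 and 1.62 in T1, T2 and TS, and was at 199 in TF. In TNG67 it went from 73.6 to 434, 482 and 660 FPKM, with 232 in TF, so the failed calli of the cultivars were alike for a locus at 660 against 1.62 FPKM at TS.

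LOC_Os01g60740, also on chromosome 1, rose most in TNG67. It was at 13.1, 745, 1521, 1414 and 908 FPKM there, against 40.9, 20.7, 28.6, 3.31 and 423 in IR64. Its IR64 failed callus was about 10 times its IR64 embryo, so TF did not merely return to the embryo value. The most abundant locus of this direction was LOC_Os05g02070 on chromosome 5. It was at 537, 3235, 6904, 5635 and 2270 FPKM across the TNG67 stages, against 1395, 128, 454, 158 and 1238 in IR64.

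Further loci of this direction repeated the course at lower levels. LOC_Os09g35020 on chromosome 9 measured 2.85, 26.2, 112, 51.6 and 17.3 FPKM across the TNG67 stages, against 53.9, 2.59, 4.49, 2.49 and 26.0 in IR64. LOC_Os10g36360 on chromosome 10 measured 8.14, 26.0, 86.1, 87.6 and 63.1 FPKM across the TNG67 stages, against 89.0, 3.37, 4.14, 7.26 and 34.4 in IR64. LOC_Os04g45330 on chromosome 4 measured 6.76, 10.1, 71.1, 61.8 and 43.4 FPKM across the TNG67 stages, against 21.0, 0.246, 1.81, 0.429 and 27.2 in IR64. In these 3 loci the TNG67 value at T2 was well over that at T1, and the IR64 TF value was at least 4.92 times the T2 value on the (FPKM + 1) scale.

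LOC_Os01g29140, LOC_Os05g20954 and LOC_Os10g41330 were well below the embryo in the IR64 failed callus. The first, on chromosome 1, stood at 43.6 FPKM in the IR64 embryo, 0.653 in TS and 4.71 in TF. The second, on chromosome 5, was at 46.9, 0.753 and 6.12 FPKM in the same libraries, and the third, on chromosome 10, at 87.6, 1.99 and 22.3. Their TNG67 values went from 0.475, 4.27 and 1.09 FPKM in the embryo to 14.7, 46.5 and 25.8 in TS and 2.53, 10.7 and 8.28 in TF.

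LOC_Os07g26860 on chromosome 7, the sum of 3 deposited rows, did not cross over in the other calli. TNG67 had a listed 0 in the embryo and then 4.28, 7.73, 11.0 and 0.280 FPKM in T1, T2, TS and TF, against 287, 57.6, 24.4, 10.1 and 59.9 in IR64. IR64 was higher in every library pair but TS, where the cultivars were close, at 11.0 and 10.1.

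**Figure D2:**
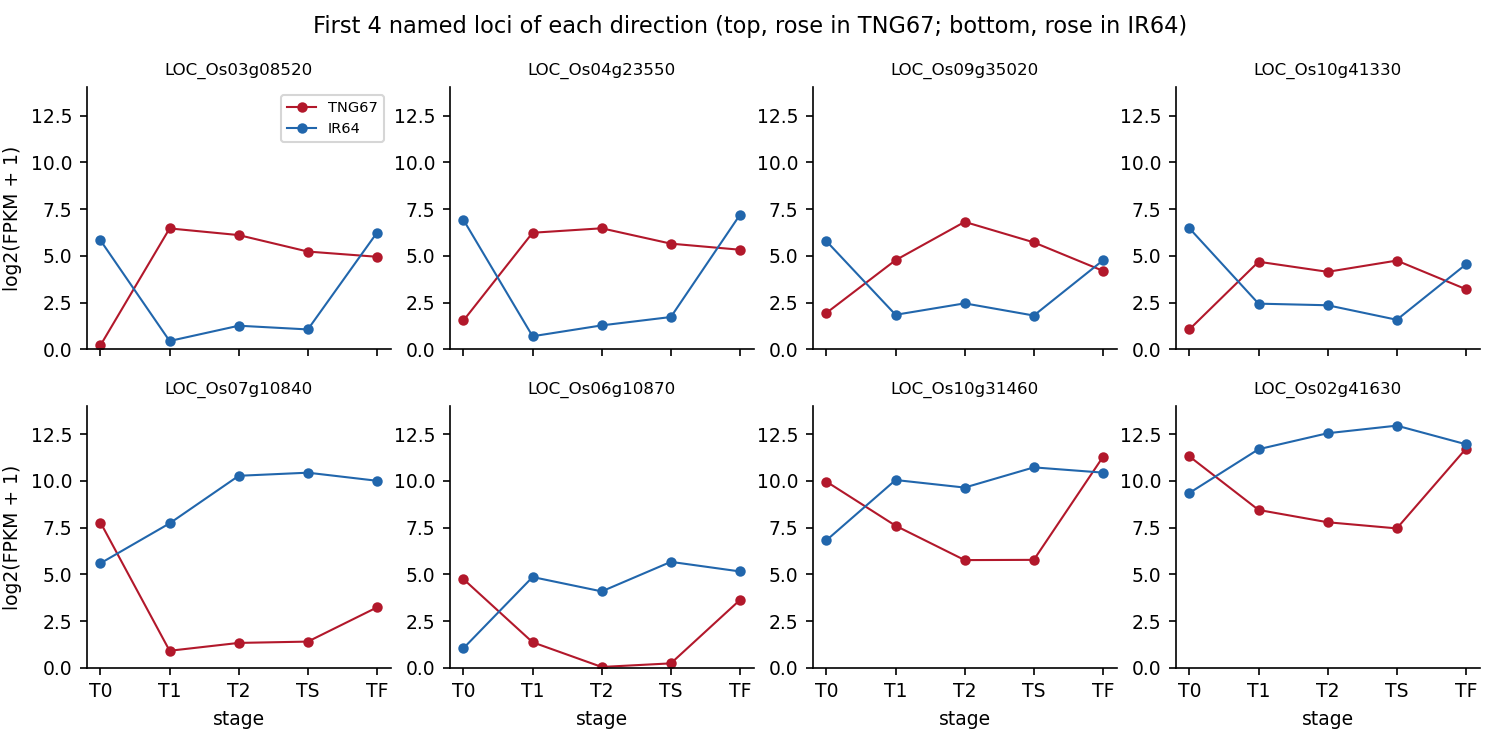
Level of the first 4 named loci of each direction, as log2(FPKM + 1), at the 5 stages in TNG67 (red) and IR64 (blue), 1 library per point; TS and TF are alternative outcomes. In all 8 panels the cultivars lie closer together at TF than at T1, T2 or TS, but for LOC_Os07g10840 barely so against T1. Its log2 difference, TNG67 minus IR64, was -6.77 at TF and -6.81 at T1. LOC_Os07g10840 keeps the widest gap at TF, 8.40 against 1025 FPKM.

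Among the loci that fell in TNG67 and rose in IR64, LOC_Os07g10840 on chromosome 7 ranked first. It was at 217, 0.882, 1.52, 1.64 and 8.40 FPKM in TNG67 T0, T1, T2, TS and TF, and at 47.3, 211, 1234, 1384 and 1025 FPKM in IR64. The TNG67 loss was nearly complete in every callus, with a small value in TF, and every IR64 callus was above both embryos or close to the TNG67 one.

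The most abundant locus of this direction was LOC_Os02g41630 on chromosome 2, at 2530, 347, 220, 175 and 3368 FPKM across the TNG67 stages, against 653, 3304, 5982, 7922 and 3973 in IR64. LOC_Os10g31460 on chromosome 10, the sum of 3 deposited rows, was at 993, 193, 53.3, 53.7 and 2484 FPKM across the TNG67 stages, against 112, 1055, 797, 1686 and 1387 in IR64. In both loci the TNG67 failed callus was above the TNG67 embryo. LOC_Os06g04940 on chromosome 6 measured 789, 19.1, 26.4, 12.4 and 230 FPKM across the TNG67 stages, against 71.3, 317, 288, 688 and 828 in IR64, and its TNG67 failed callus stayed below the embryo.

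LOC_Os06g10870 on chromosome 6 was close to 0 in TNG67 T2 and TS but not in TF, at 25.8, 1.58, 0.0328, 0.180 and 11.4 FPKM, and was at 1.07, 27.9, 16.0, 49.8 and 34.6 in IR64. LOC_Os03g03810 on chromosome 3 measured 109, 16.0, 41.3, 9.03 and 210 FPKM across the TNG67 stages, against 52.0, 219, 436, 599 and 637 in IR64. LOC_Os01g12190 on chromosome 1 measured 36.6, 1.496, 6.72, 3.06 and 40.7 FPKM across the TNG67 stages, against 23.5, 170, 207, 247 and 276 in IR64. For these 3 loci the 4 IR64 calli lay within about 4-fold of one another, while the TNG67 calli spread much wider through TF.

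LOC_Os10g34930 on chromosome 10 was unlike most, in that IR64 was low until TS: it was at 3.21, 5.06, 11.1, 41.2 and 33.2 FPKM there, against 76.7, 5.76, 1.16, 5.93 and 19.2 in TNG67. LOC_Os02g17900 on chromosome 2 had 19.1 FPKM in the TNG67 embryo, a listed 0 in TS and 11.1 in TF, and rose in IR64 from 0.902 to 15.8. LOC_Os10g23310 on chromosome 10 went from 8.02 to 0.128 FPKM in TNG67, with 9.60 in TF, and from 0.973 to 24.2 in IR64.

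Some members had neighbouring identifiers. Among the 52 loci 4 pairs lay within 5 places of each other in identifier order, and among the 72 no pair did. Another 4 pairs held 1 locus of each direction, but these were LOC_Os03g46090 and LOC_Os03g52410, each paired with both loci of a consecutive pair. Whether the directions differ in this was not tested, and no such count was made for other loci. LOC_Os03g46060 and LOC_Os03g46070 are consecutive on chromosome 3. The first was at 102, 36.7, 8.48, 9.13 and 99.3 FPKM across the TNG67 stages, against 4.62, 54.5, 557, 1072 and 939 in IR64, and the second at 12.5, 1.60, 0.352, 0.818 and 7.26 in TNG67 and 0.716, 5.88, 42.5, 135 and 99.7 in IR64. Both were higher at each step from T0 to TS in IR64 and lower at TF than at TS. LOC_Os03g46090, with 1 locus between it and the second, moved the other way, from 1.82 to 10.6 FPKM between T0 and TS in TNG67 and from 23.1 to 2.34 in IR64.

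LOC_Os03g52380 and LOC_Os03g52390, also consecutive on chromosome 3, were at 17.5 and 22.1 FPKM in the IR64 embryo and 265 and 543 in IR64 TS, and at 59.4 and 157 in the TNG67 embryo and 5.25 and 35.8 in TNG67 TS. Near them too a locus of the other direction lay, LOC_Os03g52410, with a listed 0 for the TNG67 embryo, 5.04 FPKM in TNG67 TS, and 28.2 and 1.57 in IR64 T0 and TS. The other pairs were LOC_Os10g31440 with LOC_Os10g31460 on chromosome 10, with no locus between them in the table, and LOC_Os05g15850 with LOC_Os05g15880 on chromosome 5, with 2 between. LOC_Os05g15880 was the stronger of its pair, at 13.2 FPKM in the IR64 embryo and 2151 in IR64 TS, against 0.787 and 14.2 for LOC_Os05g15850. Reads were kept only where they aligned uniquely, so levels would be uncertain at any neighbours that are near-identical. Whether these neighbours are was not examined.

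By chromosome, the first direction was most frequent on chromosome 8, with 11 of 1521 loci tested (0.723%, against 0.314% over all chromosomes), and least on chromosome 9, with 1 of 1287. The second was most frequent on chromosome 10, with 8 of 1194 (0.67%, against 0.227%), and least on chromosome 4, with 1 of 1976. These shares rest on few loci and were not tested.

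T1 and T2 did not enter the choice, and in both the opposite courses were already present. Relative to the same embryo libraries, the loci of the first direction had a median log2 change of 2.23 in TNG67 T1 and 2.70 in T2, close to the 2.72 in TS, and of -2.88 and -2.72 in IR64, against -3.06 in TS. The second direction had medians of -2.67 and -3.02 in TNG67 T1 and T2, against -2.90 in TS, and of 1.98 and 2.16 in IR64, against 2.62. The embryo libraries are shared by all of these changes, so they are values set side by side and not separate evidence. Over the whole table, the same rule applied to T1, T2, TS and TF in turn gave 52, 63, 72 and 7 loci in the first direction and 25, 38, 52 and 12 in the second, so opposite movers were fewest when failed callus took the place of regenerated callus.

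**Figure D3:**
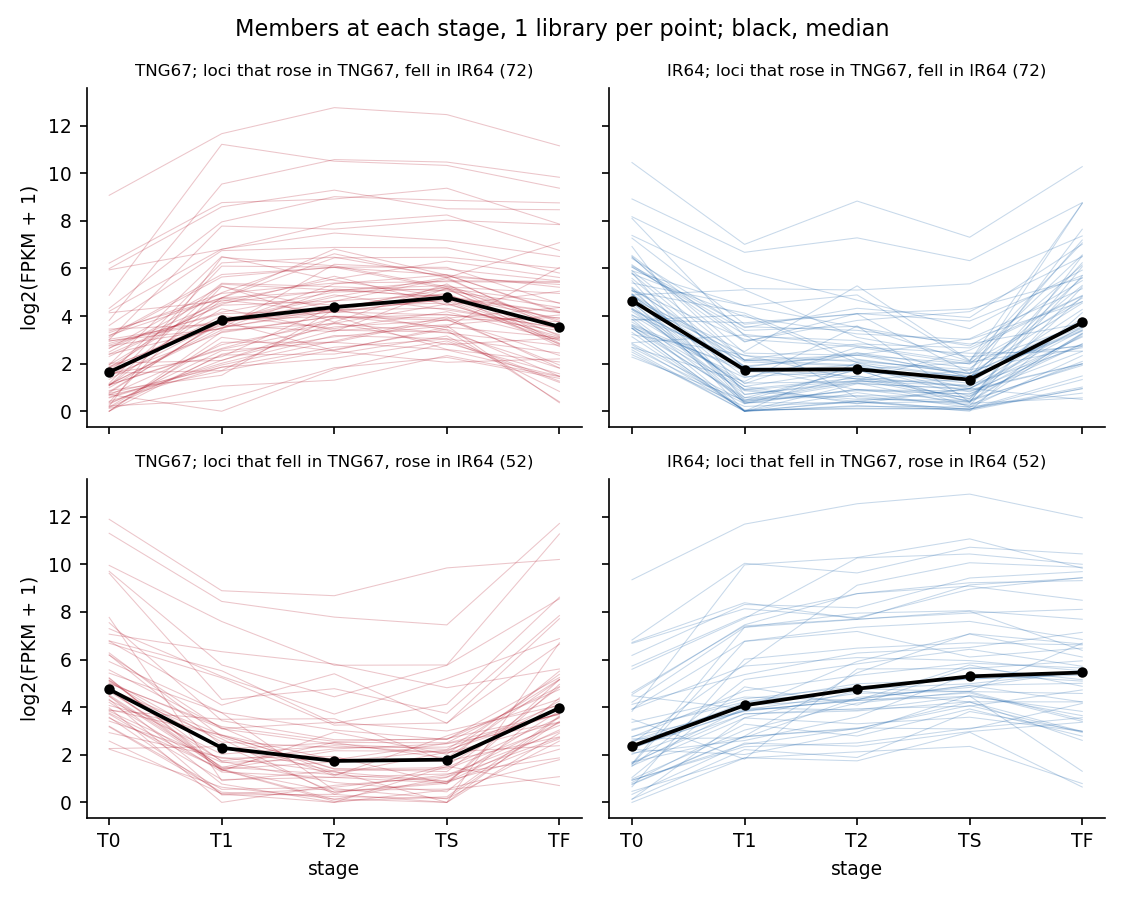
Level of each locus as log2(FPKM + 1) at the 5 stages, 1 library per point, for the 72 loci that rose in TNG67 (top) and the 52 that rose in IR64 (bottom), in TNG67 (left) and IR64 (right); the black line is the median, and TS and TF are alternative outcomes. In the cultivar where loci fell, the median is low at T1, T2 and TS and higher at TF.

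The cultivars were compared over the libraries that had no part in the choice, T1, T2 and TF, with limma on log2(FPKM + 1), stage as a block and Benjamini-Hochberg adjustment over all 22913 loci. Of the 72 loci that rose in TNG67, 8 (11.1%) were called higher in TNG67 and 0 lower, where 8.01% of all loci were called higher in TNG67. Of the 52 that rose in IR64, 16 (30.8%) were called higher in IR64, where 8.22% of all loci were. The first share is near the background. The median log2 difference, TNG67 minus IR64, was 1.67 for the first direction and -2.16 for the second, against -0.03 for all loci. LOC_Os07g10840 had the clearest difference among the named loci, -7.51 (SE 0.52, limma adjusted p = 0.0059).

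This fit takes the cultivar difference to be the same in T1, T2 and TF. In the single libraries its medians differed between these stages, though the change at TF did not pass the test given below. At T1 the median log2 difference was 2.24 for the first direction, with 68 of 72 loci higher in TNG67. At T2 it was 2.67, with 71 of 72 higher. At TF it was 0.15, with 40 loci higher in TNG67 and 32 higher in IR64. For the second direction the medians were -2.14 at T1, -3.29 at T2 and -0.93 at TF, with 48, 51 and 42 of 52 loci higher in IR64. Over all loci the medians were -0.08 at T1, -0.005 at T2 and 0.0 at TF. By the median the failed calli were therefore about level for the first direction and still apart, though less, for the second. Single loci were often not level. Their log2 differences at TF ran from -5.57 to 3.70 in the first direction, with quartiles of -1.10 and 0.72. In the second they ran from -6.77 to 2.95, with quartiles of -1.70 and -0.12.

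**Figure D4:**
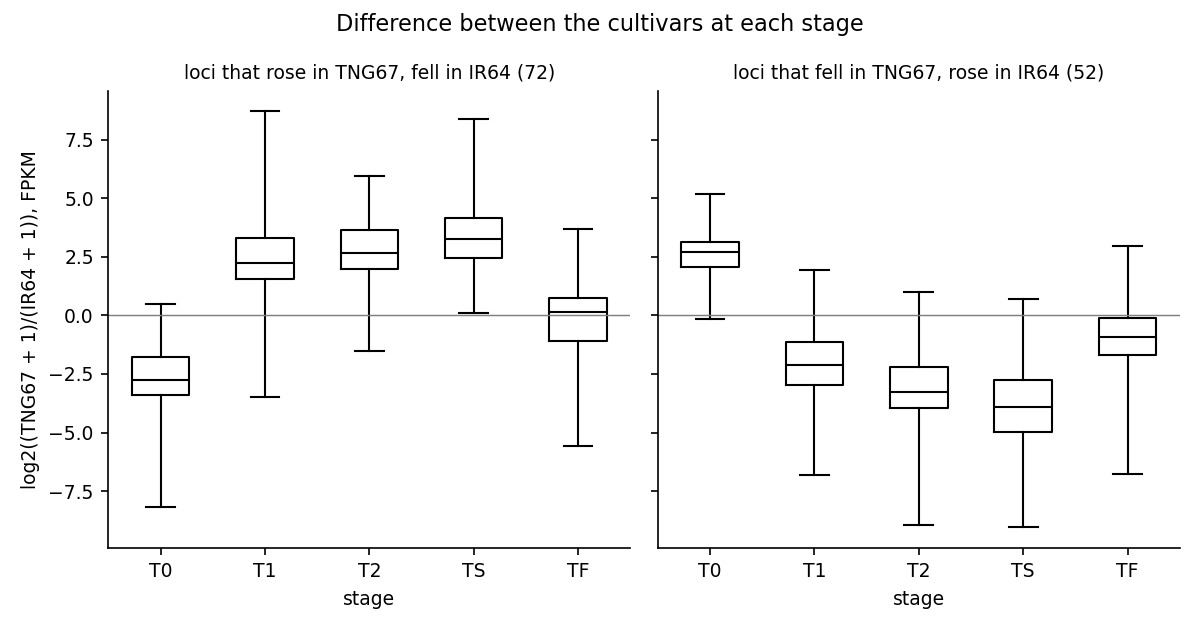
Log2 ratio of (FPKM + 1) between TNG67 and IR64 at each stage over the 72 loci that rose in TNG67 (left) and the 52 that rose in IR64 (right); boxes span the quartiles around the median and whiskers reach the lowest and highest locus. The median changes sign between the embryo and T1 in both panels and lies nearest to 0 at TF, at 0.15 and -0.93.

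After these values were seen, the 6 libraries were fitted again with limma with separate cultivar differences for T1 with T2 and for TF. This second fit had no stage term, so T1 and T2 of a cultivar were treated as replicates although they are different stages. In T1 and T2, 53 of the 72 loci (73.6%) were called higher in TNG67, where 13.4% of all loci were, and 38 of the 52 (73.1%) were called higher in IR64, where 14.8% were. Of the 72, 1 locus was called lower in TNG67, LOC_Os07g26860, at -2.51 (SE 0.51, limma adjusted p = 0.030). LOC_Os04g23550 had a difference of 5.36 (SE 0.27, limma adjusted p = 0.0018), LOC_Os01g10490 one of 5.78 (SE 0.21, limma adjusted p = 0.0018) and LOC_Os06g04940 one of -3.69 (SE 0.27, limma adjusted p = 0.0033). In the first fit LOC_Os06g04940 was called (limma adjusted p = 0.029), but LOC_Os04g23550 and LOC_Os01g10490 were not (0.27 and 0.11). None of the loci named by rank that rose in TNG67 was called there. Their lowest limma adjusted p was 0.059, for LOC_Os07g26860, which was lower in TNG67. In the second fit LOC_Os04g45330, LOC_Os03g46060 and LOC_Os10g34930, also named by rank, were not called (limma adjusted p = 0.054, 0.15 and 0.27). Loci apart at TS were mostly apart in T1 and T2 as well. Of the other loci at least 4-fold apart at TS, 1296 of 1537 higher in TNG67 (84.3%) and 1245 of 1570 higher in IR64 (79.3%) were called the same way in T1 and T2, so the share is not particular to loci that moved oppositely.

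Without TNG67 T1, 33.3% and 25% of the 2 directions were called, against 7.1% and 2.47% of all loci and 61.2% and 23.8% of the other loci apart at TS. LOC_Os07g26860 was then not called, at -2.14 (limma adjusted p = 0.20). LOC_Os04g23550, LOC_Os01g10490 and LOC_Os06g04940 were still called, at 5.48, 5.85 and -3.47 (limma adjusted p = 0.034, 0.021 and 0.043).

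The p-values of the second fit measure the spread between the single T1 and T2 libraries of a cultivar. As T1 and T2 are different stages, that spread holds any change between them as well as technical variation. The counts of 53 and 38 were 12 and 6 with no filter on low values. In the first fit the counts of 8 and 16 were 0 and 0 with no filter, and 17 and 11 without the stage as replicate block. Both pairs of counts also changed widely whenever a library was left out. The number of all loci called moved across the same settings, as given at the end. These changes are therefore not read as a result about the members.

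The second fit also asked whether the cultivar difference changed between T1 with T2 and TF, which differ in medium as well. limma called 0 loci for this interaction, 0% of the table, with a lowest adjusted p of 0.059; 3586 loci (15.7%) and 70 of the 124 opposite movers had an unadjusted p under 0.05. The term was negative, a narrowing of the TNG67 excess, in 69 of the 72 loci (median -2.55), and positive in 45 of the 52 (median 1.83), against a median of 0.06 over all loci. For LOC_Os03g08520 it was -6.72 (limma adjusted p = 0.085), for LOC_Os04g23550 -7.23 (limma adjusted p = 0.085) and for LOC_Os01g10490 -5.56 (limma adjusted p = 0.085). No other tool was run. With no filter on low values limma called 2048 of all 54170 loci and 6 of the 124, which is not read as a result about the members. The change of the difference at TF is reported as not passing the test. Without TNG67 T1 the term was negative in 69 of the 72 loci and positive in 47 of the 52, with medians of -3.04 and 1.84. In that fit limma gave a lowest adjusted p of 0.198, with 3246 loci and 69 of the 124 at an unadjusted p under 0.05, and the 3 named terms were -6.55, -7.35 and -5.63 for LOC_Os03g08520, LOC_Os04g23550 and LOC_Os01g10490.

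Within the cultivar where loci fell, the failed callus stood above the subcultured callus. TF and T2 did not enter the choice, although T2 was about as low as TS in these loci, with medians of 2.40 and 1.51 FPKM in IR64. In IR64, 70 of the 72 loci were higher in TF than in T2, and 33 (45.8%) at least 4-fold, where 2.58% of all loci were; 0 were at least 4-fold lower, where 0.615% were. In TNG67, 51 of the 52 loci were higher in TF than in T2, and 32 (61.5%) at least 4-fold, where 2.38% of all loci were; 0 were at least 4-fold lower, where 0.34% were. The median TF level was 12.3 FPKM in IR64 for the 72 loci, against 2.40 in T2 and 24.1 in the embryo. For the 52 loci in TNG67 it was 14.7 FPKM, against 2.35 in T2 and 25.9 in the embryo. The median log2 change from T2 to TF was 1.73 for the 72 loci in IR64, against -0.05 for all loci. For the 52 loci in TNG67 it was 2.34, against -0.02 for all loci. With 1 library per stage there is no test of these counts, which were made after the values were seen. T2 was on 2,4-D medium and TF on regeneration medium, so the failure and the change of medium cannot be told apart in this comparison.

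Other loci that were low in callus give a measure for these shares. Of the other 1597 loci that fell at least 4-fold in IR64 TS, 243 (15.2%) were at least 4-fold higher in IR64 TF than in T2. Where such loci were also at least 4-fold lower in IR64 TS than in TNG67 TS, the count was 113 of 347 (32.6%). The corresponding counts for TNG67 were 128 of 1599 (8.01%) and 61 of 209 (29.2%). The shares of 45.8% and 61.5% among opposite movers lie above these, and the difference was not tested.

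**Figure D5:**
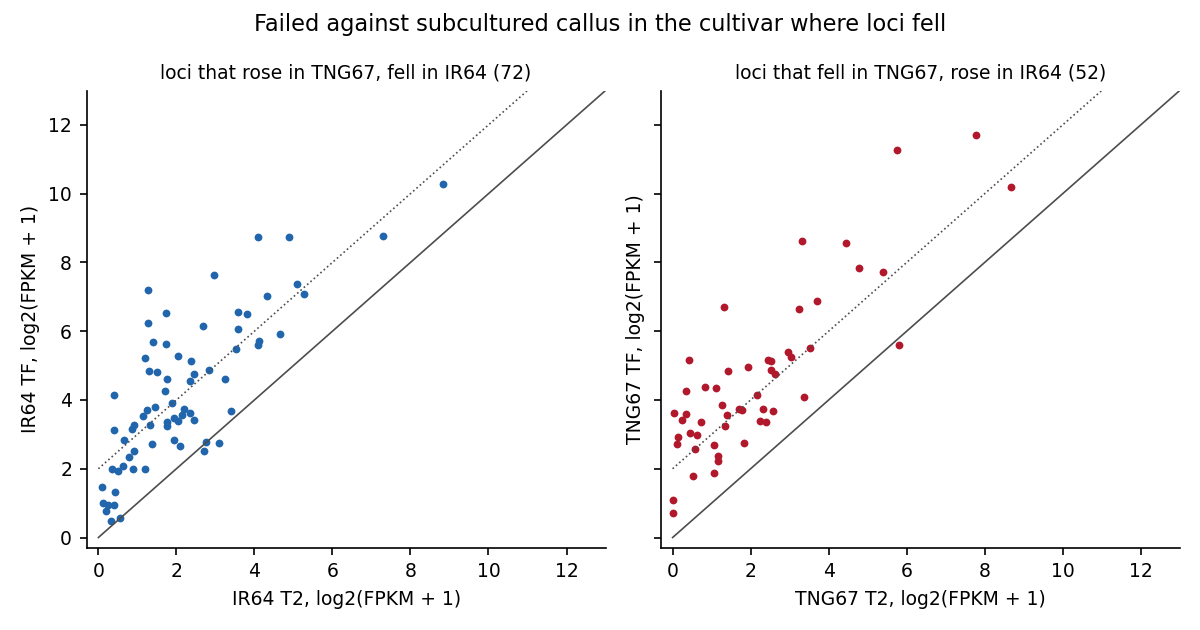
Level in failed callus (TF, vertical) against subcultured callus (T2, horizontal), both as log2(FPKM + 1), in IR64 for the 72 loci that fell there (left) and in TNG67 for the 52 that fell there (right); the solid line marks equal levels and the dotted line 4-fold. In IR64 70 of 72 points and in TNG67 51 of 52 lie above the solid line.

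The size of the increase differed widely between loci. In IR64 LOC_Os04g23550 went from 1.43 FPKM in T2 to 145 in TF, 60.3-fold on the (FPKM + 1) scale, LOC_Os03g08520 changed 31.5-fold and LOC_Os01g10490 25.6-fold, while LOC_Os05g20954 changed 1.86-fold. In TNG67 LOC_Os10g31460 went from 53.3 to 2484 FPKM, 45.8-fold, and LOC_Os02g41630 from 220 to 3368, 15.3-fold, while LOC_Os07g10840 went from 1.52 to 8.40, 3.73-fold.

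In the cultivar where loci rose, failed callus behaved differently for the 2 directions. In TNG67, 63 of the 72 loci were lower in TF than in T2, with a median log2 change of -0.97, and 3 (4.17%) were at least 4-fold lower and 1 (1.39%) at least 4-fold higher, where 0.34% and 2.38% of all loci were. In IR64, 22 of the 52 were lower in TF and 30 higher, with a median of 0.36, and 2 (3.85%) were at least 4-fold lower and 1 (1.92%) at least 4-fold higher, where 0.615% and 2.58% of all loci were. Over all loci the median log2 change from T2 to TF was -0.02 in TNG67 and -0.05 in IR64. The narrowing at TF in the first direction thus came from both cultivars, and in the second direction from TNG67, as single-library values with no test.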

How the data were processed

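RNA of 5 culture stages of TNG67 and IR64 was sequenced, 1 library each; the bisulfite data (10 libraries) were not analysed here. Per the labels' protocols, read quality was assessed by FastQC, reads of both cultivars were aligned by Bowtie against a japonica reference (Nipponbare, IRGSP-1.0) allowing 2 mismatches and keeping unique hits, and the authors derived the deposited FPKM values by TopHat. Tool versions, gene models and strand: not given in the sources used here. Indica reads that differ from a japonica reference can fail to align, so IR64 levels may be understated at some loci; this was not tested.

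The deposited table had 55166 rows, and rows of the 968 loci on 2 or 3 rows were summed. Folds are ratios of FPKM + 1, which understates changes of low loci. limma 3.58.1 (R 4.3.3) was run on log2(FPKM + 1) with an intensity trend, 2 residual degrees of freedom before moderation and an adjusted p threshold of 0.05, after trials on simulated data. Counts used Python 3.11.15 with pandas 2.3.3 and numpy 2.4.6, and plots matplotlib 3.10.9. The members, the lists and the first fit were chosen with earlier results of these data known, and the second fit and the comparisons of TF with T2 after the values reported here were seen. The named loci are, in each direction, the 12 with the largest smaller change and at least 10 FPKM in a choosing library, those nearest the limit and those on neighbouring identifiers. No identifier matched the RefSeq table of assembly ASM3414082v1, so gene lists could not be tested and no sequence is shown. Samples carry no replicate numbers. The stage served as the block in the first fit, and the second fit had no stage term.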

Additional observations from a re-analysis of the deposited data

Results flagged for a closer look

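The cultivars moved in opposite directions between embryo and regenerated callus at 72 loci that rose in TNG67 and fell in IR64 and at 52 that did the reverse. With 1 library on each side, these differences between the cultivars were not tested.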

How the results depend on the processing

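The numbers of opposite movers, 72 and 52, were 71 and 51 with median-ratio scaling, 72 and 53 with quantile normalization (62 and 38 of them shared), 60 and 48 at a mean of at least 5 FPKM, 66 and 51 on single-row loci, and 72 and 52 with no filter. They moved to 186 and 177 at a pseudocount of 0.1, 21 and 18 at a pseudocount of 5, 419 and 339 at a 2-fold limit and 13 and 11 at an 8-fold limit. With TF in place of TS they were 7 and 12, and with T1 52 and 25. Members at least 4-fold higher in TF than in T2, 33 in IR64 and 32 in TNG67, became 20 and 16 at a pseudocount of 5, 57 and 46 at 2-fold and 14 and 17 at 8-fold, where 0.917% and 0.724%, 8.54% and 9.0%, and 0.803% and 0.637% of all loci did so.

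The first limma fit, of T1, T2 and TF, called 3719 loci, 11 with no filter on low values, 1709 at a mean of at least 5 FPKM, 4233 without the replicate block, and 0 to 6672 with a library left out (0 at adjusted p, with 5389 at an unadjusted p under 0.05 without TNG67 T1 and 5392 without IR64 T1). Its members' counts of 8 and 16 became 0 and 0 with no filter, 17 and 11 without the replicate block, 0 to 59 and 0 to 37 with a library left out. The added fit of T1 and T2 called 6470 loci, 2175 with no filter, 3531 at a mean of at least 5 FPKM and 1681 to 2643 with a library left out, and its members' counts of 53 and 38 became 12 and 6 with no filter and 15 to 24 and 6 to 15 with a library left out. In the first fit, leaving out a library leaves its stage with a lone sample, which the stage term takes up. The whole stage then drops out of the cultivar comparison, whichever cultivar's library is removed. The added fit with a library left out assumes that the lone sample varies like the others. The interaction called 7 loci at a pseudocount of 5, 3 at a mean of at least 5 FPKM and 2048 with no filter, with 0, 0 and 6 of the opposite movers among them, and 0 in each fit with a library left out. The cause was not tested. Of the 24 loci named by rank, 12 in each direction, none changed sign in any setting of either cultivar fit; loci named for other reasons were not followed across settings. Over all combinations of these loci and settings, the side of the threshold was the same in 291, calls were lost in 32 and gained in 34 in the first fit, and the same in 215, lost in 69 and gained in 1 in the added one. Depth was unknown, so counting error could not be given.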
